A study of Rattus norvegicus with 2 samples.

Results

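The Rab GTPases of vesicle traffic were followed across both populations of rat natural killer (NK) cells in the series. Members were all genes whose symbol in the platform annotation is Rab followed by a number and at most 1 letter, leaving out Rab27a. This gave 55 genes with a probe set of their own, of 14217 such genes on the array, read by 94 probe sets. Each gene was read from its brightest probe set by mean log2 signal, in arbitrary units on the deposited linear scale. A RefSeq table names 58 such symbols, among them Rab27a, which the rule leaves out. Of the others only Rab42 and Rab44 had no probe set of their own and are not analysed here. Of the 55 genes, 42 had a signal above a floor of 20.4 (the median of all signals) on at least 1 array and are called measured. That is 76.4%, against 64.1% of all 14217 genes.

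The cells came from spleens of PVG.7b rats aged 8 to 12 weeks, 9 rats in all, first depleted of cells carrying TCRαβ, CD68, CD5, the Igκ chain or CD45RA with antibodies and beads. Both populations were CD3-negative and carried NKR-P1A, and they differed in the second receptor, the inhibitory NKR-P1B or the activating Ly49s3, with cells carrying both left out. Each was put on 1 Affymetrix array, a chip that reads each transcript by a set of short probes, and whether a population pooled several rats is not given in these sources. With 1 array each there were no replicates, no test was possible, and each difference below describes this pair of arrays.

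Rab proteins are small switches that sit on membranes when bound to GTP and in the cytosol when bound to GDP. Each marks a certain compartment and recruits the proteins that move, tether and fuse its vesicles. Exchange factors turn them on, GTPase-activating proteins turn them off, and a shared machinery adds their lipid anchors and takes them off membranes. In NK cells they are best known for bringing lytic granules to the contact with a target cell, a step that needs the non-member Rab27a.

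Most Rab signals lay close together in both populations. Of the 39 genes above the floor for both populations, 37 were within 1.5-fold (94.9%, against 90.3% of all genes above it for both). The other 3 measured genes, Rab13, Rab15 and Rab38, were above it for 1 population only, so their folds are lower bounds and cannot be placed within any fold. Of all 42, 22 were nominally higher in NKR-P1B+ cells and 20 in Ly49s3+ cells. Counts and medians below take such genes at their bound. The median difference, given throughout as log2 of NKR-P1B+ over Ly49s3+ signal, was 0.00 with an interquartile range from −0.13 to 0.20, and over all 9114 measured genes it was −0.02 with a range from −0.21 to 0.18. Nominally higher in NKR-P1B+ cells were 47.6% of all genes. At least 1.5-fold higher there were 2 Rab genes, Rab27b and Rab15 (of all genes, 5.06%), and at least 1.5-fold higher in Ly49s3+ cells was 1, Rab32 (of all genes, 5.72%). In either direction that was 7.14% of the measured Rab genes and 10.8% of all genes. These directions, and those of the groups below, are relative to the deposited scale. When the arrays were scaled to their poly-A spike controls, the median of all genes moved from −0.02 to 0.46, 18 Rab genes were at least 1.5-fold higher in NKR-P1B+ cells and 0 in Ly49s3+ cells, and 39 of 41 were nominally higher on the former. When both were centred on their medians, 30 of 42 were nominally higher there.

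**Figure D1:**
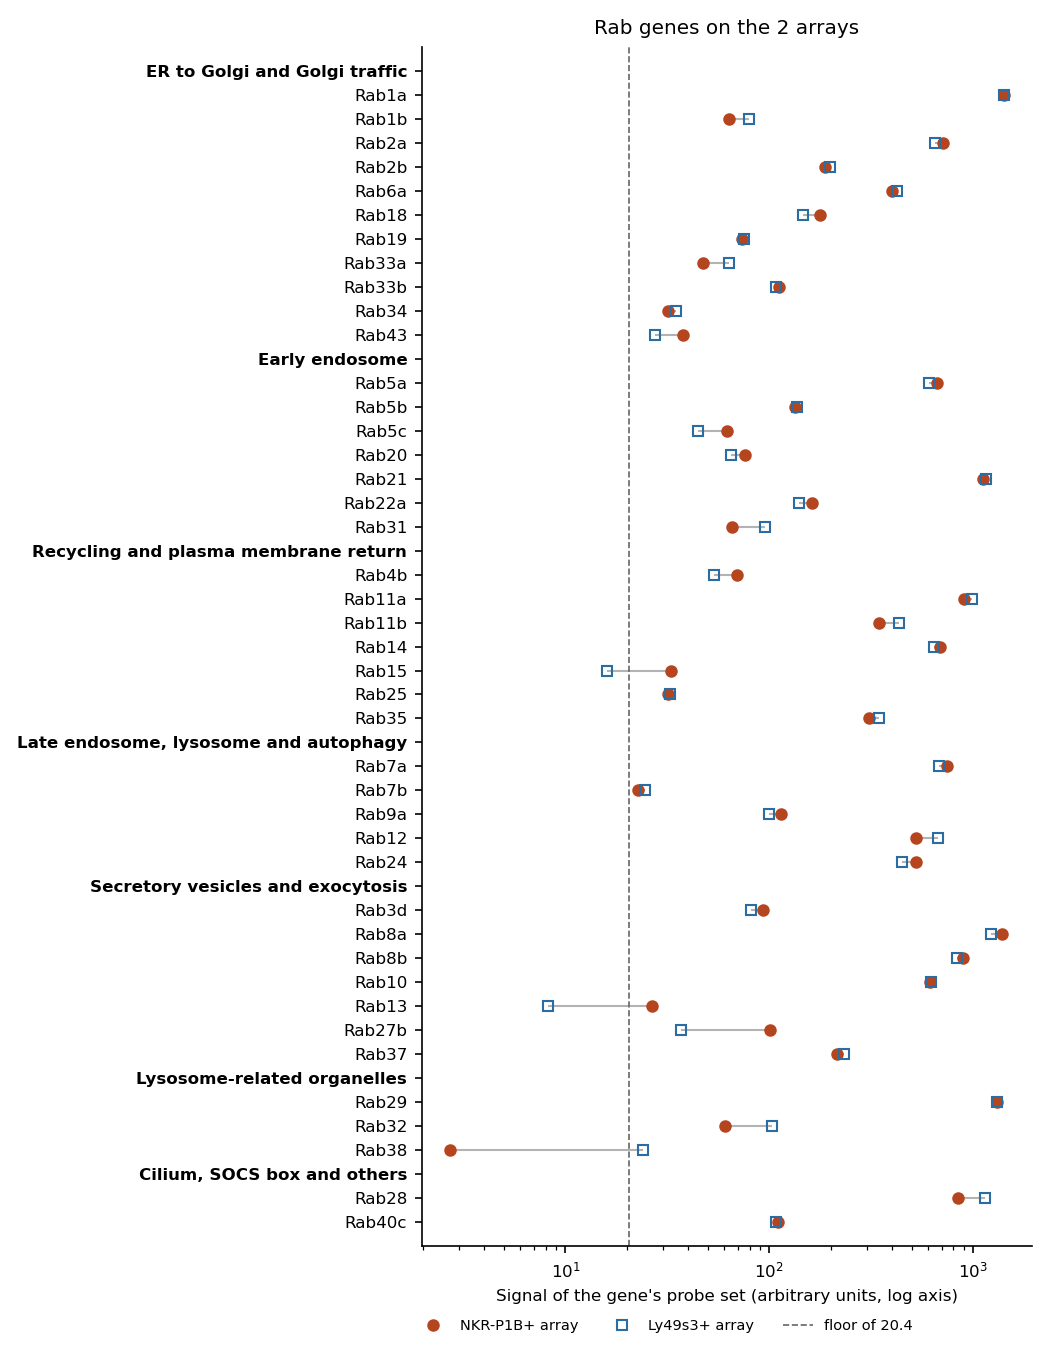
Signal of each of the 42 measured Rab genes in NKR-P1B+ cells (filled circles) and Ly49s3+ cells (open squares), in arbitrary units on a log axis, grouped by site of action, with the floor of 20.4 dashed. Most pairs overlap, and Rab27b (101 against 36.9) and Rab32 (60.5 against 103) are the widest pairs above the floor on both arrays.

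The promoters of the 3 genes past 1.5-fold are shown because they are the members the comparison turns on, and that of Rab1a because its 2 signals were nearly equal. Each is the 250 bases before the gene's start, 5′ to 3′ along the gene, from RefSeq on the GRCr8 assembly. Capitals mark a GC box, GGGCGG or its reverse complement, found by letters alone. The window of Rab27b is chr18:65938584-65938833 on the minus strand, that of Rab32 chr1:6781259-6781508 on the minus strand, that of Rab15 chr6:101257084-101257333 on the minus strand and that of Rab1a chr14:98623427-98623676 on the plus strand.
Rab27b: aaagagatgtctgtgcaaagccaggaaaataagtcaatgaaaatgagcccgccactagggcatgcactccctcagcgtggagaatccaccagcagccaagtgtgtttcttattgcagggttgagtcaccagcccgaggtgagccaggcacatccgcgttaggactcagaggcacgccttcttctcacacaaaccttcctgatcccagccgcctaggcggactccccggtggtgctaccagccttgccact
Rab32: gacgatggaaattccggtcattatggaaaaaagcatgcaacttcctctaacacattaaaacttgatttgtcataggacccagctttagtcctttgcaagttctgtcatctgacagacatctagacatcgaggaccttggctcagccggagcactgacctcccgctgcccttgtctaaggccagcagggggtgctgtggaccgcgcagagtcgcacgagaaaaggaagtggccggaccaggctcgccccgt
Rab15: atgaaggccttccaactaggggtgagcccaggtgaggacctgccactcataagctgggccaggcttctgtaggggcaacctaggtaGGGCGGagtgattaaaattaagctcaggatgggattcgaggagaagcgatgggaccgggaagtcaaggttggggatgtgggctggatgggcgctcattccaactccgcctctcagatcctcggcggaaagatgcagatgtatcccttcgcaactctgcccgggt
Rab1a: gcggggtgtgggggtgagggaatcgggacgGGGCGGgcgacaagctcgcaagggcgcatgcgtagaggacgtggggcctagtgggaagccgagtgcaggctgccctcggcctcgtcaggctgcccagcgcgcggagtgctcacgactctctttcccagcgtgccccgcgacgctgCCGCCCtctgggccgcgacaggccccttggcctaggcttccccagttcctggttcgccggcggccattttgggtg

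Promoters were found for 44 of the 55 genes. A GC box on either strand was present in 34 of the 44 (77.3%), against 60.2% of the promoters of all measured genes on the array and 32.4% of all promoters in the table. A TATA box (TATAAA, either strand) was present in 0 of 44, against 6.17% and 13.1%. CCAAT was in 15 of 44 (34.1%, against 36.5% and 34.3%), CACGTG in 3 (6.82%, against 8.78% and 5.79%) and the longer cyclic AMP response element in 1 (2.27%, against 3.21% and 1.7%), each counted on both strands. The 44 include 10 Rab genes that were not measured. Of the 34 promoters of measured Rab genes, 27 (79.4%) had a GC box and 0 a TATA box. CCAAT was in 32.4% of the 34, CACGTG in 8.82% and the cyclic AMP response element in 2.94%. The ratio of observed to expected CpG pairs had a median of 0.73 in the 34 promoters of measured Rab genes and 0.66 in the 10 of Rab genes below the floor. Over all genes of the array those medians were 0.76 and 0.46. The sequences printed above had ratios of 0.46 for Rab27b, 0.68 for Rab32, 0.51 for Rab15 and 0.83 for Rab1a. A match of letters is a description of the window and no evidence of binding.

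The secretory Rab genes held the widest difference among the 39 members above the floor for both populations. Rab27b, which docks secretory granules at the plasma membrane and is the close relative of Rab27a, had a signal of 101 in NKR-P1B+ cells and 36.9 in Ly49s3+ cells, 2.73-fold higher on the former. At least 2-fold higher in that direction were 1.78% of all measured genes. Among the 39 members above the floor for both populations no other was 2-fold apart, but with the floor at the 35th percentile Rab13 (1.48 in log2), Rab15 (1.04) and Rab38 (−1.32) were too, and Rab13 lay past the 1.45 of Rab27b. The other probe set of Rab27b read 80.0 and 16.6. The latter is below the floor, so the second reading is at least 3.92-fold, in the same direction. Of all 9114 measured genes 58 (0.636%) were at least as far toward NKR-P1B+ cells, and of the 1337 with a mean signal from 32 to 64, the range that holds Rab27b, 24 (1.8%) were. Under the 11 other settings tried its log2 difference of 1.45 lay between 0.93 and 1.95, past 1.5-fold in each.

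The 5 other secretory genes above the floor for both populations were within 1.5-fold (of all genes above it for both, 90.3%). Rab8a, which carries vesicles from the Golgi and recycling endosomes to the cell surface, had 1384 in NKR-P1B+ cells and 1219 in Ly49s3+ cells, and its relative Rab8b had 895 and 830.4, with all 3 Rab8b probe sets between 0.11 and 0.39 in log2. Rab10, which also serves surface delivery, had 612 and 624.5. Rab37, known from secretory granules of mast cells, had 215 and 231. Rab3d, of the Rab3 branch that serves regulated secretion, had 93.5 and 81.1. Rab13, known from cell junctions and surface delivery, had 26.7 and 8.2, of which the second is below the floor, a bound of at least 1.31-fold. Rab3a, Rab3b, Rab3c and Rab26 were at or below the floor on both arrays, so of the Rab3 branch only Rab3d was measured. The highest of these unmeasured signals was that of Rab3a at 13.6 and 19.9, just under the floor, and the gene nearest above the floor on both arrays was Rab7b.

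Rab27b is also known from platelets and mast cells, so their markers were read beside it. The platelet list summed to 347 in NKR-P1B+ cells and 159 in Ly49s3+ cells over 9 genes, of which the integrin gene Itgb3 made up 250.0 and 57.0. The platelet genes Itga2b, Gp9, Gp5, Ppbp, Clec1b and Tubb1 were at or below the floor on both arrays, Pf4 had 30.9 and 26.6, and Treml1 ran the other way at 15.9 and 30.4. The mast cell list ran the other way, at 163 and 285 over 11 genes, with Kit, Ms4a2, Fcer1a, Hdc, Tpsab1 and Mcpt1 at or below the floor on both. The antigen-presenting list, at 3072 and 2224 over 12 genes, had a higher sum in the same population as Rab27b. Itgax made up 2281 and 1716 of it. The macrophage list, at 877 and 718 over 13, also had a higher sum there. The sums of the NK, T cell, B and plasma cell, neutrophil and erythroid lists were also higher there, so a higher sum is not particular to any of them. Of the 4 measured erythroid markers only 1, Hbb (276 and 153), was higher in NKR-P1B+ cells, and 3 were higher in Ly49s3+ cells. The neutrophil list had 1 measured marker, Mmp9. Of the 9 measured antigen-presenting markers 6 were higher in NKR-P1B+ cells and 3 lower, the widest of these Batf3 at 4.2 and 83.2. Of the 3 measured macrophage markers Lyz2 was higher there (356 and 133), and Ctsb (299 and 312) and Ctss (154 and 185) were lower. The part of these cells in the Rab27b signal was not tested. In such sorted populations fewer cells with a transcript and less of it per cell cannot be told apart.

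Among Rab genes of lysosome-related organelles, Rab32 was lower in NKR-P1B+ cells. Rab32, which directs cargo to melanosomes and platelet dense granules, had 60.5 there and 103 in Ly49s3+ cells, 1.70-fold higher on the latter, from its only probe set. Of all measured genes 274 (3.01%) were at least as far toward Ly49s3+ cells, and 55 of the 1680 in its range of mean signal (3.27%). Its log2 difference of −0.76 was within 1.5-fold at −0.27 with the poly-A scaling and −0.54 with 32 added to each value before log2, and stayed negative under all settings. Rab38, its closest relative with overlapping function, had 2.7 and 24.0, which is a bound of at least 1.18-fold in the same direction. Rab29, which acts at the Golgi and lysosome with the kinase LRRK2, had 1307 and 1305, the closest pair of all members. Of the 5 measured mast cell markers 4 were higher in the same population as Rab32, among them Mcpt10 at 51.5 and 148 and Mcpt8 at 21.4 and 38.1, and Gata2 ran the other way at 29.1 and 17.9. Their part was not tested.

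**Figure D2:**
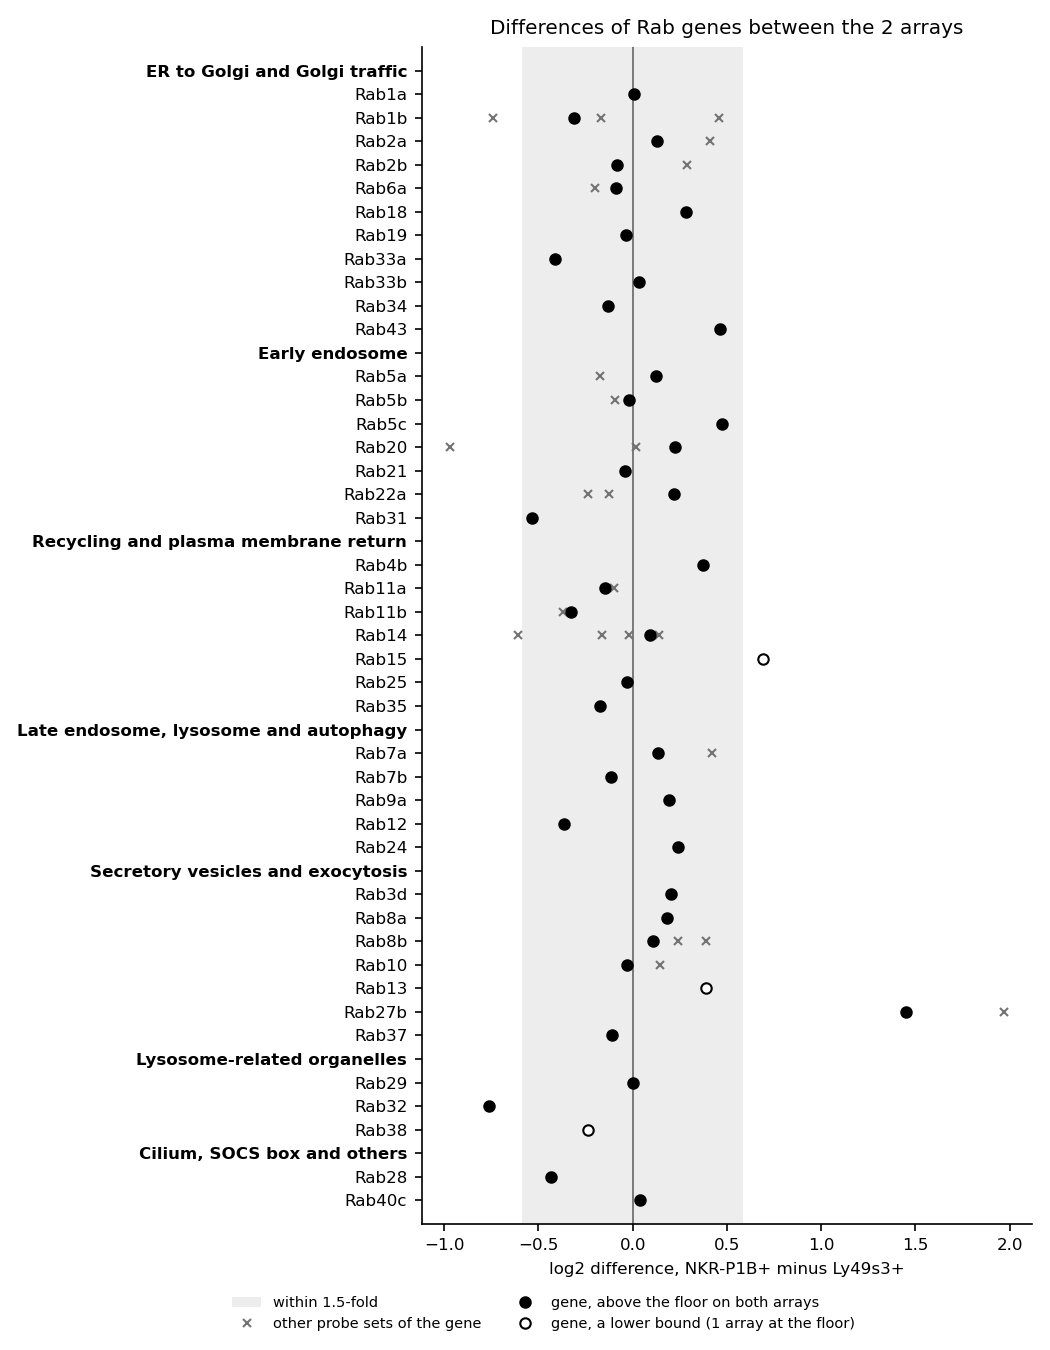
Log2 difference, NKR-P1B+ minus Ly49s3+, of the 42 measured Rab genes by site of action (circles, open where 1 array was at the floor and the value is a lower bound), with the gene's other measured probe sets as crosses and differences within 1.5-fold shaded. Rab27b at 1.45, Rab15 at 0.69 and Rab32 at −0.76 lie outside the shading, and single crosses of Rab1b, Rab14 and Rab20 lie outside it although the gene's own circle lies within.

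Recycling Rab genes differed little where both arrays gave a signal. Rab11a, which returns cargo from the recycling endosome, had 899 in NKR-P1B+ cells and 993 in Ly49s3+ cells, and Rab11b had 345 and 433. Both probe sets of each gene were nominally higher in Ly49s3+ cells. Rab14, which links the Golgi with endosomes, had 686 and 644 on its representative probe set, while its other 4 probe sets ran from −0.61 to 0.14 in log2. Rab35, which sends cargo quickly back to the plasma membrane, had 307 and 347, and Rab4b, of the rapid recycling route, 69.6 and 53.7. Rab25, an epithelial relative of Rab11, had 31.7 and 32.4. Rab4a was below the floor on both arrays, at 13.1 and 4.5.

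Rab15, known from early and recycling endosomes, had 32.9 in NKR-P1B+ cells and 16.0 in Ly49s3+ cells, a bound of at least 1.61-fold. The signal was close to the floor, and its other 2 probe sets were below the floor on both arrays. Its log2 difference of 0.69 became 0.23 when all 3 probe sets were averaged and 0.44 with 32 added, both within 1.5-fold. With the floor at the 65th percentile it was not measured.

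Early endosome genes were measured in 7 of 8 cases, all within 1.5-fold (of all measured genes, 89.2%), with a median log2 difference of 0.12. Rab5a, which drives fusion of early endosomes, had 665 in NKR-P1B+ cells and 611 in Ly49s3+ cells, its relatives Rab5b 134 and 136 and Rab5c 61.9 and 44.5. The 1.39-fold difference of Rab5c was the widest of the 3, and passed 1.5-fold when the arrays were centred on their medians or scaled to the poly-A controls. Rab21, which carries integrins through endosomes, had 1124 and 1155. Rab22a, of early and recycling endosomes, had 162 and 139, and Rab31, between the Golgi and endosomes, 66.0 and 95.5, at 1.45-fold the widest of this group. Rab20, known from phagosomes, had 75.6 and 64.8, but a second probe set gave a log2 difference of −0.97 (25.4 and 49.8) against 0.22. Rab17, a gene of epithelial cells, was below the floor on both.

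Late endosome, lysosome and autophagy genes were within 1.5-fold in all 5 measured cases (of all measured genes, 89.2%), with a median of 0.14. Rab7a, needed for fusion of late endosomes with lysosomes, had 747 in NKR-P1B+ cells and 679.8 in Ly49s3+ cells, and both its probe sets were nominally higher on the former. Rab9a, which returns receptors from late endosomes to the Golgi, had 114 and 99.9, and Rab24, linked to autophagy, 527 and 447. Rab12, which sends receptors from recycling endosomes to lysosomes, was 1.29-fold higher in Ly49s3+ cells (523 against 674). Rab7b, a late endosomal relative of Rab7a, had 22.7 and 24.6, just above the floor, and Rab9b was below it on both.

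Genes of traffic between endoplasmic reticulum (ER) and Golgi were the largest group, with 11 of 15 measured and a median of −0.03. All 11 were within 1.5-fold (of all measured genes, 89.2%). Rab1a, which is needed for ER to Golgi transport, had 1422 in NKR-P1B+ cells and 1415 in Ly49s3+ cells, and Rab6a, of traffic back through the Golgi, 399.7 and 425. Rab2a, which acts between both organelles, had 709.6 and 649, and Rab2b 188 and 199. Rab18, of the ER and lipid droplets, had 178 and 147, the Golgi genes Rab33b 111 and 108.5, Rab33a 47.5 and 63.1, Rab19 73.6 and 75.4 and Rab34 31.8 and 34.8. Rab43, also of the Golgi, was 1.38-fold higher in NKR-P1B+ cells (37.9 against 27.5). Rab30, Rab36, Rab39a and Rab6b were below the floor on both arrays.

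Rab1b, the close relative of Rab1a, was not settled by its probe sets. Its representative probe set read 63.8 in NKR-P1B+ cells and 79.2 in Ly49s3+ cells, and its 4 probe sets ran from −0.74 to 0.46 in log2. A further 3 probe sets match both Rab1a and Rab1b and belong to no member. One of them read 36.4 and 34.9, and the other two were below the floor.

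Of the remaining genes, Rab28, linked to cilia and photoreceptors, was 1.35-fold higher in Ly49s3+ cells (848 against 1147) on 1 probe set. Rab40c, which carries a SOCS box and works with a ubiquitin ligase, had 111 and 108. Rab23, a regulator of Hedgehog signalling, and Rab40b were below the floor on both.

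The spread of these readings can be judged only from probe sets of the same gene, which share RNA and arrays. Of 15 Rab genes with at least 2 measured probe sets, 8 had all differences on the same side of 0, and in 7 they crossed it. The 7 were Rab1b, Rab2b, Rab5a, Rab10, Rab14, Rab20 and Rab22a, so the direction given for each above holds for its brightest probe set. The widest spans were 1.20 in log2 for Rab1b and 1.19 for Rab20. Over all genes, the standard deviation of 1 probe set's log2 difference, taken from pairs of probe sets, was 0.35 below a mean signal of 64 and 0.20 at 256 and above. The difference was under 1 such standard deviation for 27 of 42 Rab genes (64.3%, against 61.0% of all measured genes) and at least 2 of them for 3 (7.14%, against 12.5%). Those 3 were Rab27b, Rab32 and Rab28. Rab15, by its bound, was at 1.99. Variation between rats, sorts or arrays is not part of this spread.

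**Figure D3:**
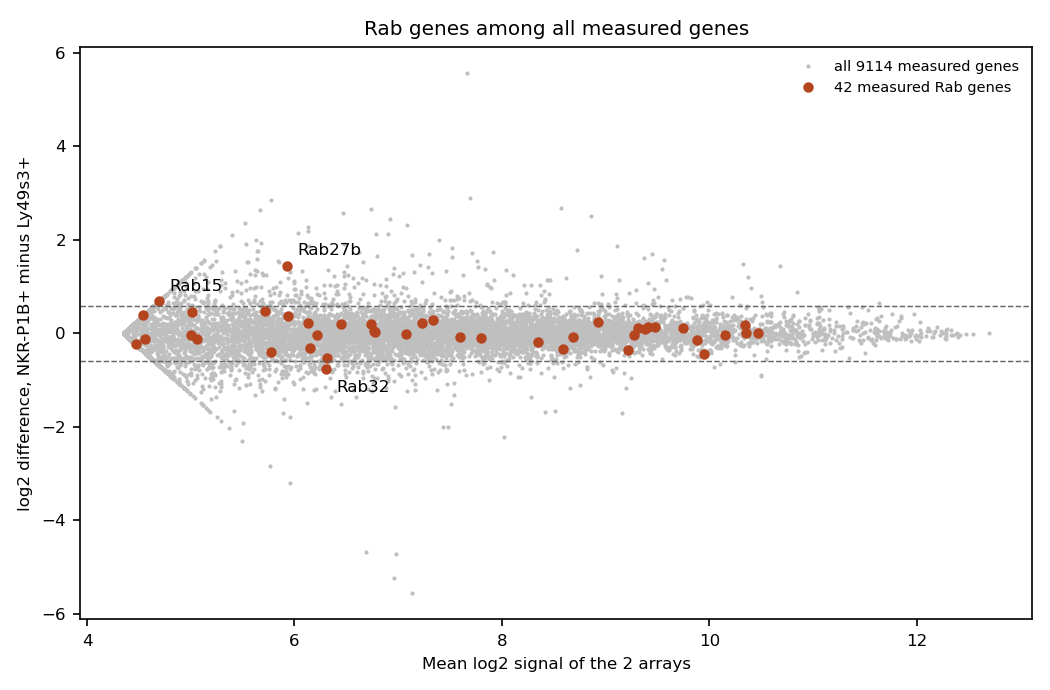
Log2 difference, NKR-P1B+ minus Ly49s3+, against the mean log2 signal of both arrays for all 9114 measured genes (grey) and the 42 measured Rab genes (coloured), with 1.5-fold dashed. The 3 Rab genes outside the dashed lines, Rab27b, Rab15 and Rab32, have mean log2 signals below 7.

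Partner genes of the Rab cycle were read from 4 lists, with 153 of 180 listed genes on the array and 129 measured. Of these, 5 were at least 1.5-fold higher in NKR-P1B+ cells and 13 in Ly49s3+ cells, together 14.0% against 10.8% of all genes, and their median was 0.04. The count apart rests on the deposited scale too, since 59 were at least 1.5-fold apart in either direction with the poly-A scaling. How those 59 divide by direction was not read.

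The list for the machinery that adds lipid anchors and removes Rab proteins from membranes also holds other genes, such as Arl6ip5. It had 9 measured genes, all within 1.5-fold on their brightest probe set (of all genes, 89.2%). Their median was 0.22, and 7 (77.8%, against 47.6% of all genes) were nominally higher in NKR-P1B+ cells. Gdi2, which extracts Rab proteins from membranes, had 2999 there and 2509.8 in Ly49s3+ cells, and Rabggtb, a chain of the enzyme that adds the lipid, 1081 and 927. A second Gdi2 probe set read 434.4 and 230.3, past 1.5-fold in the same direction.

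Of 37 measured exchange factor genes, 2 were at least 1.5-fold higher in NKR-P1B+ cells and 4 in Ly49s3+ cells, together 16.2% against 10.8% of all genes. Hps4, whose product with Hps1 activates Rab32 and Rab38, was 2.17-fold higher in NKR-P1B+ cells (93.8 against 43.3), the population with the lower Rab32 signal. Rab3ip, an exchange factor of Rab8, had 33.3 and 17.8, a bound of at least 1.63-fold. On the Ly49s3+ array Rin2, of the Rab5 branch, was 1.73-fold higher (61.7 against 107), Dennd2d 1.66-fold (227 against 377) and Trappc5 1.57-fold (89.5 against 141), though another Trappc5 probe set read 92.3 and 57.2, the other way. Dennd1c had 814.5 and 727, and Dennd3, an exchange factor of Rab12, 927 and 658.

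Of 28 measured GTPase-activating protein genes, 0 were at least 1.5-fold higher in NKR-P1B+ cells and 3 in Ly49s3+ cells. Together that was 10.7%, near the 10.8% of all genes (5.06% and 5.72% by direction). Tbc1d4, which holds back insulin-driven surface delivery by keeping Rab10 and its relatives off, was 2.31-fold higher in Ly49s3+ cells (109 against 252), Tbc1d7 1.64-fold (22.8 against 37.5) and Tbc1d2b 1.56-fold (135 against 210.1). Tbc1d10c had 1229 and 1162, and Tbc1d15, which acts on Rab7, 1077 and 983.

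Of 55 measured effector genes, 3 were at least 1.5-fold higher in NKR-P1B+ cells and 6 in Ly49s3+ cells, together 16.4% against 10.8% of all genes. Rab11fip1, which binds Rab11 on recycling endosomes, was 2.36-fold higher in NKR-P1B+ cells (304 against 129), with a second probe set at 292 and 117, while Rab11a and Rab11b were nominally lower there. Optn, an effector of Rab8, was 1.71-fold higher (153 against 89.8) and Fyco1, which ties Rab7 vesicles to kinesin, 1.68-fold (718 against 426). On the Ly49s3+ array the Rab-binding phosphatase gene Ocrl was 2.13-fold higher (32.5 against 69.3), Myrip, which joins Rab27 to myosin, 2.10-fold (26.7 against 56.1) and Mical3, an effector of Rab8, 1.71-fold (41.4 against 70.6). Myrip was thus higher in the population with the lower Rab27b signal. Inpp5b, a relative of Ocrl, had 1292 and 1296, and Gorasp2, a Golgi stacking protein, 1036 and 815.

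**Figure D4:**
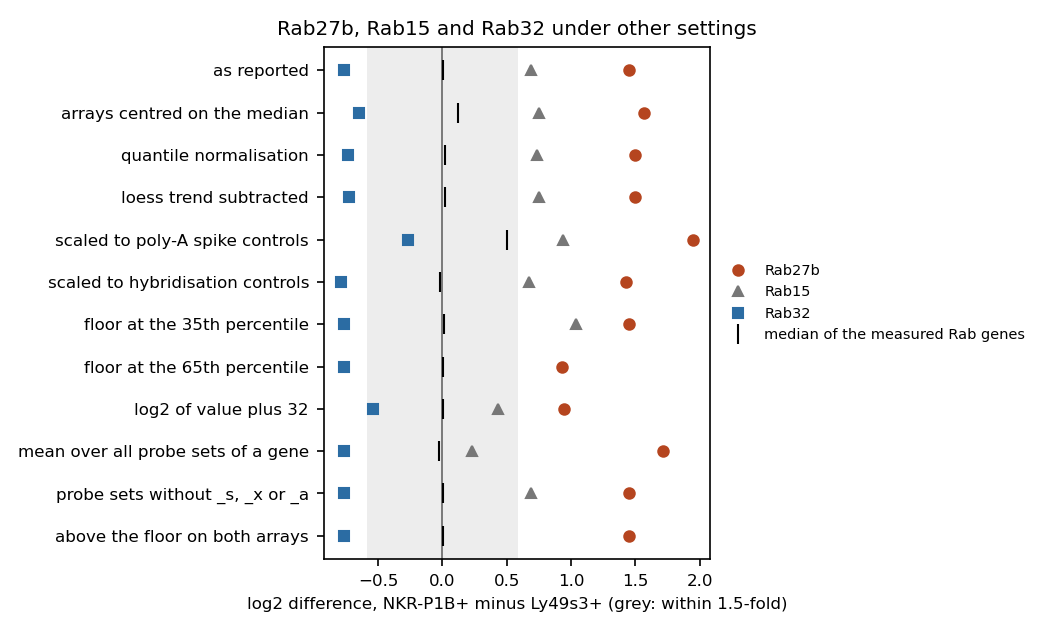
Log2 difference, NKR-P1B+ minus Ly49s3+, of Rab27b (circles), Rab15 (triangles) and Rab32 (squares), and the median of the measured Rab genes (bars), as reported and under 11 other settings, with differences within 1.5-fold shaded. Rab27b lies outside the shading throughout, from 0.93 to 1.95, whereas Rab15 and Rab32 each enter it under 2 settings, and Rab15 is not shown for 2 settings in which it was not measured.

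The arrays held 31099 probe sets, with a median signal of 19.6 for NKR-P1B+ and 21.3 for Ly49s3+ cells, and their number limits the precision. The ratio of 3′ to 5′ control signals for beta-actin was 11.9 in NKR-P1B+ cells and 13.2 in Ly49s3+ cells. For Gapdh it was 2.84 and 2.77, so on both arrays the 5′ ends of these transcripts read lower. Whether this lowered single Rab probe sets was not tested. Signals of different probe sets are not comparable as transcript levels. Klrb1b, which encodes the sorted NKR-P1B, had 1399 and 29.4, a check of the labels and no finding, and the shared NKR-P1A gene Klrb1a 3740 and 3813. All 12 NK markers on the array were measured, with sums of 23036 and 20489.8, led by Prf1 at 4023.5 and 3006 and by Klrb1a. Of the T cell list 5 of 7 were measured (sums of 1036 and 740.1), with Cd3d and Cd3e below the floor and Bcl11b and Cd6 highest at 637 and 429 and at 273 and 179. The CD3 chain gene Cd3g, above the floor for both, ran the other way at 22.3 and 42.9, as did Cd4 at 3.3 and 20.6. Of the B and plasma cell list 4 of 9 were (685 and 576), with Ms4a1 and Cd79b below the floor, Xbp1 at 460.0 and 455 and Jchain at 98.1 and 33.4. Of antigen-presenting markers 9 of 12 were measured, led by Itgax at 2281 and 1716 and RT1-Da at 346 and 97.7, and of macrophage markers 3 of 13, with Cd68 and Csf1r below the floor, led by Lyz2 and Ctsb. Neutrophil markers were measured in 1 of 9 cases (Mmp9, 176 and 97.0, of sums of 204 and 120.4), mast cell markers in 5 of 11, platelet markers in 3 of 9 and erythroid markers in 4 of 8 (374 and 354), with Hbb at 276 and 153 and Hemgn at 50.6 and 131. No marker on the array was at exactly 0.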

How the data were processed

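Gene expression was measured on 1 Affymetrix array for each of the 2 sorted populations, from 3 ug of total RNA and a sort purity above 90% per the labels. The deposited values are linear intensity values, 1 per probe set, computed by the authors with MAS5 per the submitters' processing notes. The sources used here do not give its version, target or detection calls. Both arrays had a mean of 100.04 after trimming 2% at each end, so they share a scale, and any earlier factor is unknown. The platform annotation gave 20826 non-control probe sets 1 symbol each. The gene numbers of all 55 members were found in a RefSeq table with the same symbols. Signals under the 50th percentile of all values except controls (20.4) were set to it and converted to log2 (Python 3.11.15, pandas 2.3.3), and a ratio with 1 array at this floor bounds the true ratio from below, written "at least". Members, roles, lists and settings were chosen with earlier results of these data known. Named were all measured members, up to 3 partner genes per list and direction past 1.5-fold and the 2 brightest of each partner and marker list. The other settings were 5 scalings (medians, quantiles, a loess trend with a span of 0.3, 24 poly-A controls, 18 hybridisation controls), floors at the 35th and 65th percentiles, 32 added in place of the floor, 2 other choices of probe set and a floor on both arrays. The procedure was tested on simulated data, with changes of at least 2-fold put into genes brighter than Rab27b, Rab15 and Rab32. The test therefore does not cover the signal range of these genes or changes near 1.5-fold.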

Additional observations from a re-analysis of the deposited data

How the results depend on the processing

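The median over measured Rab genes was 0.00 as reported. It became 0.12 with the arrays centred on their medians and 0.50 with poly-A scaling, and lay between −0.02 and 0.02 under the 9 other settings. The count at least 1.5-fold higher in NKR-P1B+ cells, 2 as reported, was 18 with poly-A scaling and 1 with 32 added, with the 65th percentile as floor, with all probe sets averaged and with signal required on both arrays. Under the 6 other settings it was 2 or 3. The count in Ly49s3+ cells, 1 as reported, was 0 with poly-A scaling. With the 35th percentile as floor it was 3, namely Rab32, Rab38 and Rab3b. With 32 added it stayed at 1, but the gene was Rab38 in place of Rab32. The count of partner genes at least 1.5-fold apart, 18 as reported, was 59 with poly-A scaling, 9 with 32 added and 11 with the 65th percentile as floor. Under the 8 other settings it lay between 13 and 26. The number of measured Rab genes lay between 35 and 48. Fewer genes pass a higher floor by construction; the cause of the poly-A shift was not tested. Rab27b, Rab15 and Rab32 kept their direction under every setting that measured them. No paired analysis was possible because each population had 1 array, and leaving out a replicate was likewise not possible.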
